A study of Camellia japonica and Camellia azalea with 81 samples.

Results

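The contrast described here asks, for each gene ID, whether the difference between spring and autumn in leaves of Camellia japonica was the same as the one in leaves of Camellia azalea. Its members are the gene IDs present in the expression tables of both species, 41952 of the 42012 IDs in either table. Of these, 29958 reached 1 TPM in at least 3 of the libraries compared and were tested, and the other 11994 were left out as too low. TPM give each gene's abundance per unit of length as a share of a fixed library total. For every ID, the mean of log2(TPM + 1) over the Sep, Oct and Nov months was subtracted from that over the Mar, Apr and May months within each species, and the C. azalea difference was then subtracted from the C. japonica difference. A positive species difference therefore means that spring stood higher against autumn in C. japonica than in C. azalea. The tables were scaled separately, so a level in one species was never set against a level in the other.

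Both species are evergreen shrubs of the tea family. C. japonica flowers in winter and spring, while C. azalea flowers mainly in summer. Evergreen leaves persist through cold and warm seasons, and many of their transcripts follow temperature, day length and the age of the leaf.

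The comparison used 36 of the 81 libraries of the series. They are 9 spring and 9 autumn libraries of C. japonica, followed by 9 spring and 9 autumn libraries of C. azalea, with 3 libraries in each month. All are labelled as young leaf and carry no treatment. No source used here states the cultivar, the growing site, the plants behind each library or the time of day of sampling. Each species also has its own table. A difference between the species therefore cannot be told apart from a difference in any of these. The season names are those of the calendar months in the north. The files pair no ID with a gene name, so roles cannot be given, and at most 2 IDs in each direction are named per comparison. Leaf identity could not be checked against marker genes for the same reason.

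Libraries followed their month labels less closely in the C. japonica table. The library that correlated best across genes carried the same month in 2 of 18 C. japonica libraries and in 16 of 18 C. azalea libraries. In C. japonica, 4 autumn libraries, those numbered Sep 1, Oct 1, Oct 3 and Nov 3, correlated better on average with spring than with the other autumn libraries. The gap was small for Oct 3 (mean r of 0.931 with spring and 0.928 with autumn). It was widest for Oct 1 (0.920 with spring and 0.904 with autumn), whose best match was Mar 2. The best match of Sep 1 and of Oct 3 was the summer library Aug 3 (r = 0.984 and 0.971), and that of Nov 3 was Oct 3 (r = 0.961). The C. japonica library Mar 3 had the highest correlation with flower buds of that species among these C. japonica libraries, with a mean r of 0.746, and the most genes at 1 TPM or more, 26538. No 2 libraries were near-duplicates, the highest r between any pair being 0.986. The median SD between libraries of 1 month was 0.44 in C. japonica and 0.43 in C. azalea on the log2 scale. The 10 most abundant IDs held between 6.41% and 10% of TPM in the C. japonica libraries and between 6.54% and 34.7% in C. azalea. How deeply each library was sequenced is unknown, because TPM do not retain it, and counting intervals are therefore left out.

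The response to season differed between the species at 4829 of the 29958 IDs tested, which is 16.1% of them. Spring stood higher against autumn in C. japonica than in C. azalea at 2756 IDs (9.2%) and lower at 2073 (6.92%). An ID was called at an adjusted p below 0.05 (limma, two-sided, Benjamini-Hochberg over all IDs tested) and a species difference of at least 1 on the log2 scale. The median absolute species difference was 1.49 among called IDs and 0.46 among all tested, with a median SE of 0.30. A species difference of at least 2 was reached by 729 IDs in the higher direction and 477 in the lower, and one of at least 4 by 33 and 30. Where both species had at least 5 TPM in their higher season, 2602 of 15460 IDs were called, or 16.8%. Another 518 called IDs were below 1 TPM in both seasons of C. azalea and 399 were below it in both seasons of C. japonica. Without the 4 C. japonica autumn libraries that correlated better on average with spring, an alternative chosen after seeing the data, 6889 IDs were called. Leaving out autumn libraries by that rule widens the C. japonica contrast by its construction. Without Mar 3 of C. japonica the count was 4984. It was 2315 with a pseudocount of 5, 2554 with month means as the unit and 2902 without May and Nov.

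EVM0021846 had the largest positive species difference among IDs with at least 5 TPM in the higher season of both species. In C. japonica its lowest, median and highest values were 236, 376 and 1807 TPM in spring and 15.2, 19.1 and 212 TPM in autumn. Every spring library of C. japonica was above every autumn library. In C. azalea the same 3 values were 3.52, 12.2 and 93.6 TPM in spring and 27.5, 70.3 and 358 TPM in autumn. There the seasons overlapped, and only the 3 Nov libraries, at 330, 358 and 321 TPM, were above every spring library. Outside these seasons its C. azalea month mean reached 327 TPM in Jun and was 7.74 TPM in Jul. The spring minus autumn difference was 4.32 ± 0.40 (SE) in C. japonica and -2.20 ± 0.24 in C. azalea, both called, and the species difference was 6.52 ± 0.48 (limma, adjusted p = 2.82e-10).

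EVM0033164 had the other large positive species difference, and its seasons stood apart without overlap in C. azalea alone. In C. japonica its lowest, median and highest values were 93.8, 259 and 874 TPM in spring and 11.3, 81.2 and 576 TPM in autumn. The C. japonica seasons overlapped, with Nov 2 and Nov 3 at 491 and 576 TPM. In C. azalea the values were 1.66, 4.72 and 36.8 TPM in spring and 62.3, 136 and 476 TPM in autumn, and every autumn library was above every spring library. High values there were not confined to autumn: the C. azalea month mean was 2.44 TPM in May, 424 TPM in Jun, 2.13 TPM in Jul and 456 TPM in Nov. The spring minus autumn difference was 1.82 ± 0.57 in C. japonica (limma, adjusted p = 0.0368) and -4.20 ± 0.14 in C. azalea (adjusted p = 8.17e-14). Between species the difference was 6.02 ± 0.60 (adjusted p = 2.8e-08).

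EVM0026519 showed the opposite arrangement, with the largest negative species difference. In C. japonica its lowest, median and highest values were 0, 3.92 and 172 TPM in spring and 9.55, 38.6 and 127 TPM in autumn. The 172 TPM was Mar 3, and the other 8 spring libraries averaged 3.72 TPM, with none above 6.35 TPM and all below the lowest autumn value. In C. azalea the values were 267, 456 and 740 TPM in spring and 3.26, 54.8 and 170 TPM in autumn, with no overlap. The spring minus autumn difference was -2.68 ± 0.61 in C. japonica and 4.01 ± 0.24 in C. azalea, both called, and the species difference was -6.70 ± 0.67 (limma, adjusted p = 3.36e-08). Without Mar 3 the species difference was -7.26.

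EVM0020995 was the other ID with a large negative species difference, and only its C. azalea change passed the test. It was listed at 0 in 5 of the 9 C. japonica spring libraries, at 0.0768 to 0.171 TPM in 3 others, and at 49.9 TPM in Mar 3. In C. japonica autumn libraries the lowest, median and highest values were 0, 3.86 and 62.5 TPM, so the seasons overlapped. In C. azalea the values were 64.2, 222 and 601 TPM in spring and 0.702, 12 and 48.1 TPM in autumn, and they did not overlap. The spring minus autumn difference was -1.93 ± 0.67 in C. japonica (limma, adjusted p = 0.0543) and 4.44 ± 0.36 in C. azalea (adjusted p = 3.55e-08). The species difference was -6.37 ± 0.79 (adjusted p = 7.96e-07), and it was -6.98 without Mar 3.

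**Figure D1:**
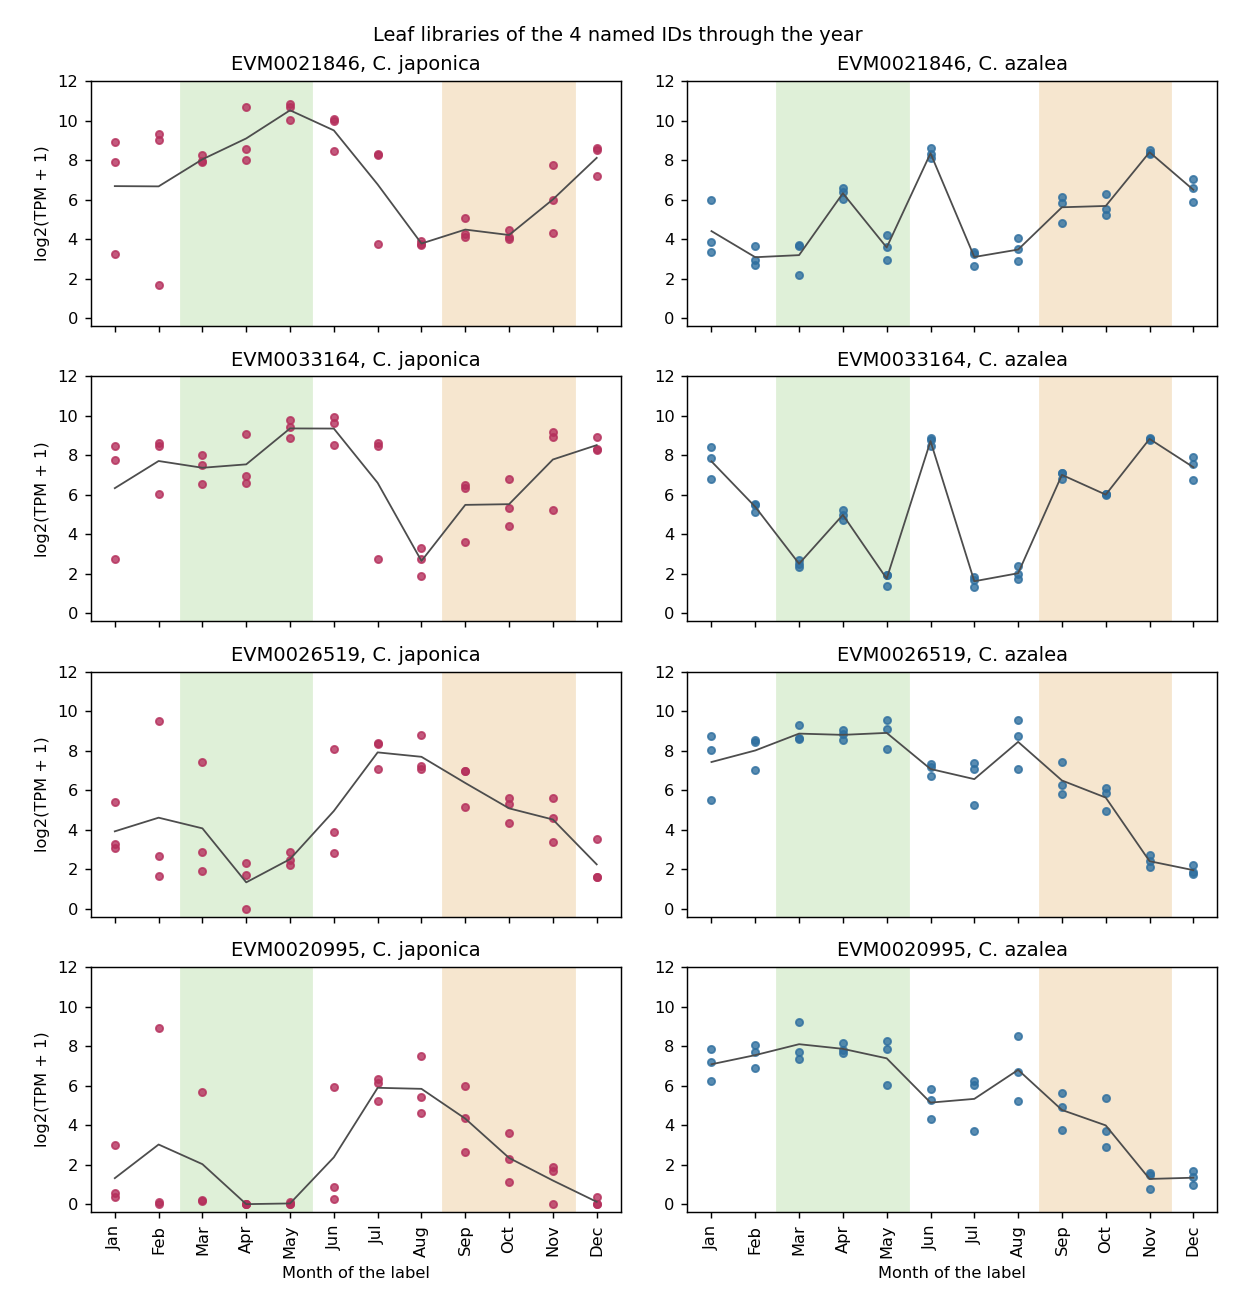
TPM by month on the log2(TPM + 1) scale for the 4 IDs named for spring against autumn, with C. japonica left of C. azalea. They have the largest species differences in each direction among IDs with at least 5 TPM in the higher season of both species. Dots are libraries, lines join the month means, and the green and tan bands mark spring and autumn. EVM0021846 and EVM0033164 stand higher in spring in C. japonica and higher in autumn in C. azalea, and EVM0026519 and EVM0020995 stand higher in spring in C. azalea, with 1 C. japonica March library (Mar 3) far above the other spring libraries.

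Both negative IDs were also abundant in C. japonica flower buds. The bud library FB-1 1 correlated best with the leaf library Dec 2 (r = 0.975), and its mean r with the other buds was 0.673, the lowest of the 9. EVM0026519 was at 5.20, 580 and 1193 TPM in FB-1 buds, the 5.20 TPM being FB-1 1, at 1167, 453 and 718 TPM in FB-2 buds and at 115, 596 and 15.9 TPM in FB-3 buds. EVM0020995 was listed at 0 in FB-1 1 and lay between 23.9 and 317 TPM in the other 8 bud libraries. In the C. japonica leaf library Feb 1 they reached 718 TPM (EVM0026519) and 486 TPM (EVM0020995), against at most 5.36 TPM in the other 2 Feb libraries. The part of bud tissue in the Mar 3 values was not tested.

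Each called ID was then placed by the changes within the species, each fitted alone. Within C. japonica, spring was called higher than autumn at 1411 IDs (5.13%) and lower at 755 (2.75%), together 7.88% of the 27499 IDs tested in that species. Within C. azalea, spring was called higher at 1154 (4.41%) and lower at 1071 (4.09%), together 8.51% of 26161. Of the 4829 IDs with a species difference, 278 (5.76%) were called within both species in opposite seasons, 1346 (27.9%) in C. japonica alone, 1312 (27.2%) in C. azalea alone and 15 (0.311%) in both species in the same season. The remaining 1878 (38.9%) were called within neither species. These groups hold IDs too low to be tested in a species: 329 of the 1346 were not tested in C. azalea, 247 of the 1312 were not tested in C. japonica, and 151 of the 1878 were not tested in at least 1 of them. Being called in 1 species alone is no test of a difference between them, and that test is the species difference itself. Among the 278, spring was the higher season in C. japonica and autumn in C. azalea at 192, and the reverse held at 86. The point values had opposite signs at 4063 of the called IDs (84.1%) and at 51.6% of all tested, a share that a large species difference raises by its construction.

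**Figure D2:**
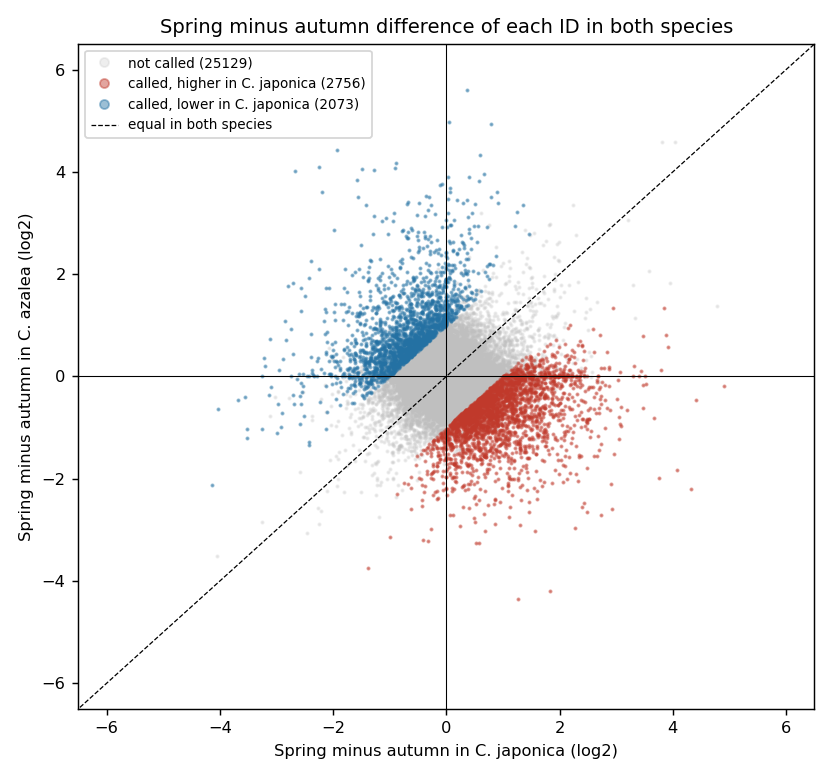
Spring minus autumn difference of log2(TPM + 1) in each species for every ID tested, 1 point per ID, coloured by the direction of the called species difference. Called IDs lie away from the line of equal change on both sides, 2756 as higher and 2073 as lower, and 4063 of the 4829 have opposite signs in the 2 species.

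Seasonal calls shared between the species were a minority of either list. Over the 23927 IDs tested within both species, 432 were called in both, 154 of them (35.6%) in the same season and 278 in opposite seasons. Of the IDs called spring-high in C. japonica, 17.1% were autumn-high in C. azalea (192 IDs; 4.16% of all IDs were on that C. azalea list) and 8.90% were spring-high there (100 IDs; 3.92% of all). Of the IDs called autumn-high in C. japonica, 12.8% were spring-high in C. azalea (86 IDs; 3.92% of all) and 8.04% were autumn-high there (54 IDs; 4.16% of all). As shares of the C. azalea lists, the 192 were 19.3% of the autumn-high IDs and the 100 were 10.7% of the spring-high ones, where 4.70% of all IDs were spring-high in C. japonica. The 86 were 9.17% of the spring-high IDs of C. azalea and the 54 were 5.43% of the autumn-high ones, where 2.81% of all IDs were autumn-high in C. japonica. Across all 29958 IDs tested, the 2 seasonal differences had r = -0.09, given as a description since genes of a library are not independent.

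The largest changes within C. japonica differed in what they did in C. azalea. EVM0015251 had 0.137, 1.42 and 3.02 TPM as the lowest, median and highest C. japonica spring values and 19, 40.4 and 66.2 TPM as the autumn ones. In C. azalea it had 0.672, 1.66 and 2.53 TPM in spring and 5.28, 10.2 and 16.3 TPM in autumn, so autumn was higher without overlap in both species. The change was -4.14 ± 0.18 in C. japonica and -2.13 ± 0.18 in C. azalea. The species difference of -2.01 ± 0.25 was called (limma, adjusted p = 7.37e-07): it is among the 15 IDs that moved in the same season but to different degrees.

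EVM0026539 changed in the same direction in the 2 species. Its C. japonica values were 1.09, 2.71 and 17 TPM in spring and 51.4, 61.7 and 127 TPM in autumn, and its C. azalea values were 1.81, 3.62 and 5.29 TPM in spring and 35.2, 55.1 and 67.0 TPM in autumn. Autumn was above spring in every library of both species. The change was -4.05 ± 0.30 in C. japonica and -3.51 ± 0.18 in C. azalea. The species difference of -0.54 ± 0.36 did not pass the test (limma, adjusted p = 0.282), which does not show that the changes were equal.

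EVM0031718 changed in C. japonica, while it was too low to be tested within C. azalea. In C. japonica it had 109, 123 and 321 TPM as the lowest, median and highest spring values and 0.0609, 0.836 and 149 TPM as the autumn ones. The 149 TPM was Nov 3, and the other 8 autumn libraries averaged 6.09 TPM. Its C. azalea values lay between 0 and 0.557 TPM in both seasons. The change in C. japonica was 4.91 ± 0.84 (limma, adjusted p = 0.00116). The species difference was tested in the joint fit and called, at 5.10 ± 0.87 (adjusted p = 6.11e-05). Its C. azalea side rests on values below 1 TPM.

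EVM0006410 was listed either at 0 or well above it in leaves of both species. The C. japonica spring values were 157, 122 and 119 TPM in Mar, 144, 133 and 90.1 TPM in Apr and 73.6, 81.1 and 0 TPM in May. The C. japonica autumn values were 49.4 TPM in Sep 1, 54.5 TPM in Nov 3 and 0 in the other 7 libraries. Both libraries above 0 are among the 4 that correlated better on average with spring, as are Oct 1 and Oct 3, which were at 0. In C. azalea it was listed at 0 in 3 of 9 spring and in 4 of 9 autumn libraries. The C. japonica change of 4.78 ± 1.0 was called (limma, adjusted p = 0.00448), and the species difference of 3.41 ± 1.5 was not (adjusted p = 0.0979). A listed 0 can be a failed estimate, and the part of such zeros here was not tested.

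Among the largest changes within C. azalea, 2 spring-high IDs were near 0 in most C. japonica leaves. EVM0034352 had 1.94, 148 and 762 TPM as the lowest, median and highest C. azalea spring values and 0, 0.813 and 2.5 TPM as the autumn ones. Of its C. azalea spring libraries, 7 were above every autumn library. In C. japonica it had at most 1.38 TPM in spring outside Mar 3, where it was at 19.5 TPM, and at most 4.02 TPM in autumn. The change was 0.36 ± 0.47 in C. japonica and 5.60 ± 0.55 in C. azalea. The species difference was -5.24 ± 0.78 (limma, adjusted p = 1.11e-05).

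EVM0027111 had the same arrangement with no overlap in C. azalea, at 36.8, 130 and 443 TPM in spring and 0.507, 2.32 and 34.5 TPM in autumn. In C. japonica it was listed at 0 in 6 of 9 spring libraries and stood at 20.8 TPM in Mar 3, and no autumn library was above 1.44 TPM. The change was 0.04 ± 0.47 in C. japonica and 4.97 ± 0.43 in C. azalea. The species difference was -4.92 ± 0.68 (limma, adjusted p = 4.21e-06).

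EVM0020167 was the most autumn-high ID of C. azalea beside EVM0033164, described above. Its lowest, median and highest C. azalea values were 0, 0.307 and 0.890 TPM in spring and 2.17, 43.2 and 90.9 TPM in autumn, with no overlap. In C. japonica the values were 0, 8.79 and 19.4 TPM in spring and 0, 2.11 and 12.5 TPM in autumn, and the seasons overlapped. The change was 1.27 ± 0.62 in C. japonica, which did not pass the test, and -4.35 ± 0.40 in C. azalea. The species difference was 5.62 ± 0.77 (limma, adjusted p = 3.4e-06).

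The months were next set against each other in pairs 6 months apart, each pair having 3 libraries per species and month and sharing no library with the other pairs. The species difference was called at 1876 IDs for Mar against Sep (6.26%), at 582 for Apr against Oct (1.94%) and at 3968 for May against Nov (13.2%). The order of these counts was not stable. With array weights Mar against Sep had 8110 calls and May against Nov 7845, and with 1 library left out the count ranged from 304 to 1502 for Apr against Oct and from 1167 to 3511 for Mar against Sep. The median SE was 0.53 in each pair, against 0.30 for the seasons. For Mar against Sep, 1291 of the calls were higher (4.31% of IDs tested) and 585 lower (1.95%). For Apr against Oct, 189 were higher (0.631%) and 393 lower (1.31%). For May against Nov, 2777 were higher (9.27%) and 1191 lower (3.98%). This balance depended on the scaling. As deposited, the median of all tested IDs was 0.23 for Mar against Sep, -0.28 for Apr against Oct and 0.14 for May against Nov. After median-of-ratios scaling within each table those medians were 0.02, -0.03 and -0.05, and higher calls made up 50.5%, 54.8% and 51.0% of calls, against 68.8%, 32.5% and 70.0% as deposited. After quantile normalization they made up 48.8%, 53.2% and 51.6%. For the seasons the share of higher calls was 57.1% as deposited and 51.9% after median-of-ratios scaling, with medians of 0.03 and -0.02.

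**Figure D3:**
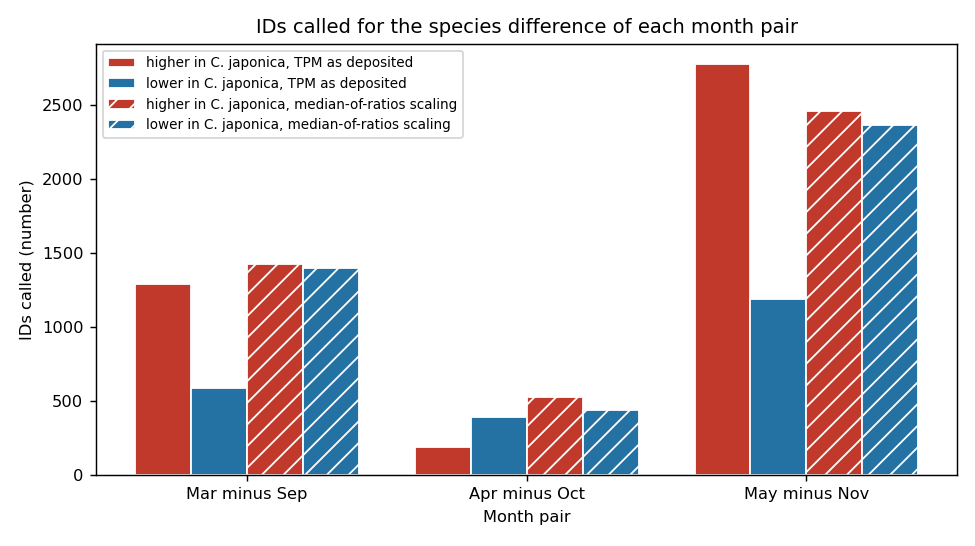
Number of IDs called in each month pair as higher or lower in the species difference, from TPM as deposited and, hatched, after median-of-ratios scaling within each table. The counts are 1876, 582 and 3968 as deposited, an order that changes with array weights, and the scaling brings the higher and lower calls of each pair close to each other.

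The sign of the species difference was the same in all 3 month pairs at 4565 of the 4829 called IDs (94.5%) and at 46.7% of all tested IDs, but the seasonal contrast is the mean of the 3 pairs, so this share is raised by the way the IDs were called. Of the called IDs, 183 were also called in each of the 3 pairs (90 higher and 93 lower), 997 in 2 pairs, 2125 in 1 pair and 1524 in none. Over all 29958 IDs the counts were 183 in 3 pairs, 1048 in 2, 3781 in 1 and 24946 in none, and these shares too are set in part by the calling on the mean of the same pairs. May against Nov gave the largest of the 3 differences at 2526 called IDs (52.3%), Mar against Sep at 1485 (30.8%) and Apr against Oct at 818 (16.9%). Across all tested IDs, r was 0.53 between Mar against Sep and Apr against Oct, 0.59 between Mar against Sep and May against Nov, and 0.61 between Apr against Oct and May against Nov. The calls shared by Mar against Sep and May against Nov numbered 1031, which is 55.0% of the first list and 26% of the second, and 1020 of them had the same sign. All 229 IDs called in both Mar against Sep and Apr against Oct had the same sign.

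For Mar against Sep, EVM0029222 had 333, 596 and 97.0 TPM in Mar and 10.9, 0 and 1.18 TPM in Sep of C. japonica. The C. azalea values were 3.21, 6.94 and 1.20 TPM in Mar and 1.51, 474 and 135 TPM in Sep. Its difference in this pair was 10.21 ± 2.1 (limma, adjusted p = 0.00235). In the other 2 pairs EVM0029222 did not pass the test, with differences of 0.88 and 1.32.

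EVM0011960 was also high in Mar in C. japonica, at 1143, 2200 and 98.0 TPM, against 17.4, 32 and 8.97 TPM in Sep. In C. azalea it had 5.78, 8.67 and 7.71 TPM in Mar and 22.7, 547 and 162 TPM in Sep. Neither species had an overlap between these months. The difference was 9.06 ± 1.3 for Mar against Sep (limma, adjusted p = 4.95e-05). EVM0011960 was called for May against Nov as well, at 4.61 ± 1.3, and not for Apr against Oct, at 2.89 ± 1.3.

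The 2 most negative IDs of Mar against Sep owed part of their size to 1 library. EVM0016210 had 0.914, 0.658 and 0.603 TPM in Mar and 153, 1.47 and 1.96 TPM in Sep of C. japonica, the 153 TPM being Sep 1. Its C. azalea values were 304, 855 and 456 TPM in Mar and at most 0.664 TPM in Sep. The difference was -10.88 ± 1.3 (limma, adjusted p = 4.45e-06), and it was -8.94 without Sep 1. EVM0002118 had 21.1, 11.8 and 19.6 TPM in Mar and 940, 5.08 and 8.35 TPM in Sep of C. japonica, and 3063, 4315 and 2817 TPM in Mar and 4.34, 6.97 and 4.72 TPM in Sep of C. azalea. Its difference was -10.13 ± 1.6 (limma, adjusted p = 0.00025), and it was -7.81 without Sep 1. In C. azalea both were again far above their Sep values in Nov, with EVM0016210 at 147, 157 and 22.1 TPM and EVM0002118 at 1235, 1866 and 495 TPM. They were not evenly high through spring there. Month means in Mar, Apr and May were 538, 1.78 and 161 TPM for EVM0016210 and 3399, 186 and 2700 TPM for EVM0002118. Neither was called for May against Nov, where the differences were -0.02 for EVM0016210 and 0.52 for EVM0002118.

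For Apr against Oct, EVM0007918 had 45.4, 22 and 5.47 TPM in Apr and 7.53, 0 and 2.42 TPM in Oct of C. japonica, with 1 Apr library below 1 Oct library. In C. azalea it had 1.82, 1.32 and 2.35 TPM in Apr and 34.2, 11.9 and 22.2 TPM in Oct, with no overlap. The difference was 5.60 ± 1.2 (limma, adjusted p = 0.00895). EVM0007918 was called in the same direction in the other 2 pairs, at 7.85 for Mar against Sep and 3.74 for May against Nov.

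EVM0036026 had 0.637, 0.342 and 0 TPM in Apr and 5.60, 6.73 and 5.02 TPM in Oct of C. japonica, and 34.3, 32.2 and 37.6 TPM in Apr and 0.541, 0.752 and 0.514 TPM in Oct of C. azalea. The months were apart in both species and in opposite directions. The difference was -6.85 ± 1.0 (limma, adjusted p = 0.000404). EVM0026519 was called in this pair too, at -6.92 ± 1.2 (adjusted p = 0.00125). The largest positive difference of this pair was that of EVM0006410, at 9.57 ± 2.6 (adjusted p = 0.0495), where the C. japonica Oct libraries and C. azalea Apr 2 and Apr 3 were listed at 0. It lost its call in 27 of 47 alternative fits, with adjusted p up to 0.159.

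For May against Nov, 3 of the 4 IDs named are those described above for the seasons. EVM0021846 had 1672, 1807 and 1044 TPM in May and 19.1, 61.3 and 212 TPM in Nov of C. japonica, and 6.64, 17.2 and 11.2 TPM in May and 330, 358 and 321 TPM in Nov of C. azalea, a difference of 9.33 ± 0.84 (limma, adjusted p = 2.05e-08). For EVM0033164 the difference was 8.64 ± 1.0 and for EVM0026519 it was -8.50 ± 1.2, both called.

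EVM0000042 was the other negative ID of May against Nov, with 3.00, 6.84 and 7.07 TPM in May and 40.2, 20.7 and 9.73 TPM in Nov of C. japonica. In C. azalea there were 64.1, 122 and 88.0 TPM in May and 0.558, 0.747 and 1.39 TPM in Nov. The months did not overlap in either species. The difference was -7.33 ± 0.81 (limma, adjusted p = 4.11e-07). EVM0000042 was called in the same direction for Mar against Sep, at -4.11 ± 0.81, and for Apr against Oct, at -5.99 ± 0.81. It was at 41.2 TPM in Mar 3 and at most 7.07 TPM in the other C. japonica spring libraries, and between 0 and 396 TPM in buds.

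The course over the 12 months showed where the called IDs stood outside spring and autumn. Month means of log2(TPM + 1) were centred on each ID's mean over the year. The spring and autumn parts of these curves chose the IDs and are given as a description. Among the 2756 IDs called as higher, the median in C. japonica was 0.52 in Mar, 0.57 in Apr and 0.57 in May, and it was lowest in Aug at -0.73. In C. azalea the same IDs had medians of -0.54 in Mar, 0 in Apr, -0.37 in May, 0.21 in Jun, -0.49 in Aug and 0.80 in Nov. Among the 2073 called as lower, the C. japonica median was lowest in May (-0.58) and stood at 0.35 in both Aug and Nov, while the C. azalea median was highest in Feb (0.58) and lowest in Dec (-0.84). Each ID was also given the month of its highest mean, where that mean was above 1 on the log2(TPM + 1) scale. The calling itself raises or lowers the spring and autumn shares of these months, and so shifts the summer and winter shares too. In C. japonica, 72.6% of the IDs called as higher had that month in spring (26.8% of all tested), and in C. azalea 58.9% had it in autumn (26% of all tested). Of the IDs called as lower, 42.5% had it in summer in C. japonica (15.5% of all tested) and 30.5% in autumn (20.7% of all). In C. azalea 37.8% had it in spring (16.9% of all tested) and 44.3% in winter, close to the 43.2% of all tested.

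**Figure D4:**
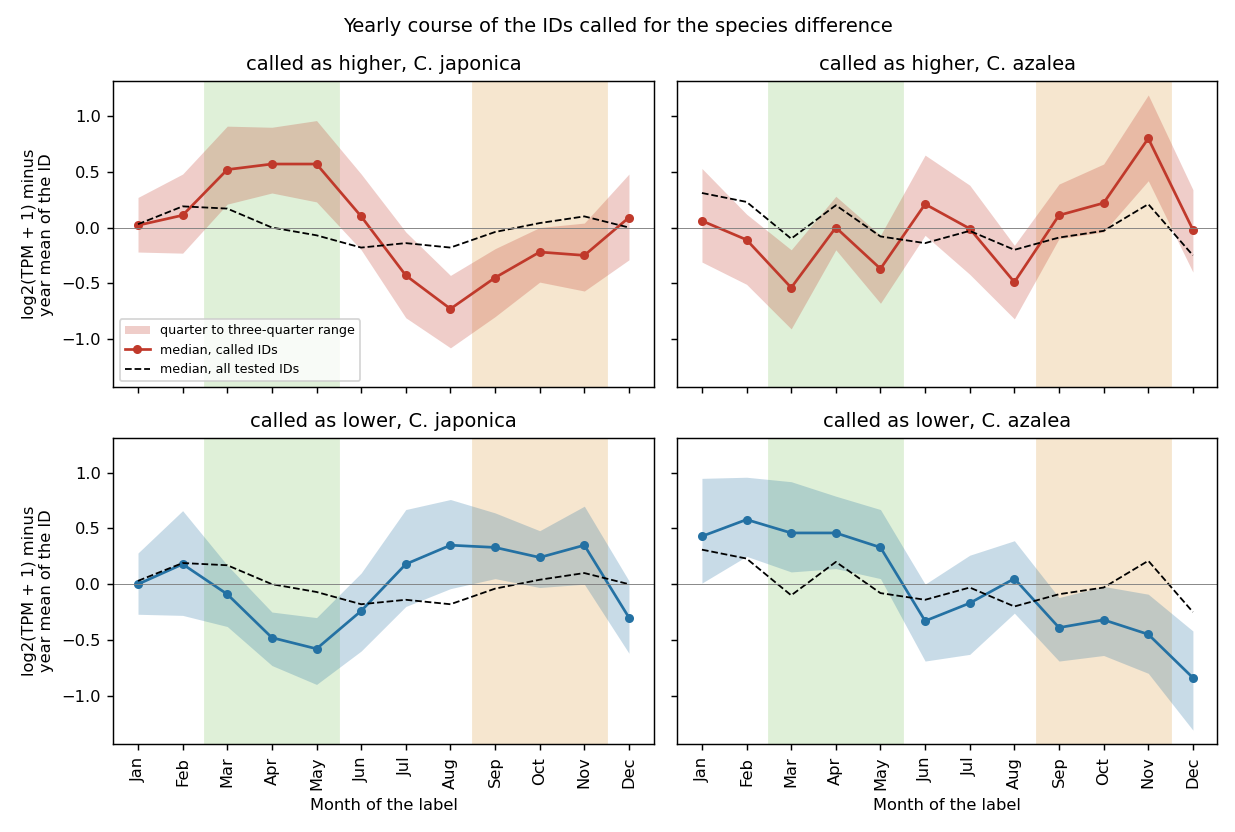
Month means of log2(TPM + 1), centred on each ID's yearly mean, for IDs called as higher and as lower, with C. japonica left of C. azalea; solid lines are medians, bands run from the lower to the upper quartile dashed lines are the medians of all tested IDs, and green and tan mark spring and autumn. The IDs called as higher have C. japonica medians of 0.52 to 0.57 in Mar to May and a C. azalea median of 0.80 in Nov.

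The 36 winter (Dec, Jan, Feb) and summer (Jun, Jul, Aug) leaf libraries took no part in the contrast. There the winter minus summer species difference was called at 794 of 30126 IDs tested, 2.64%. Among 2740 IDs called as higher for spring against autumn, its median was 0.32 and 69.2% were positive, against a median of 0.01 and 51.5% over all 29283 IDs tested in both. For 2066 IDs called as lower the median was -0.36 and 29.3% were positive. Of the IDs called as higher, 208 (7.59%) were called in the same direction for winter against summer and 19 in the other, where 1.52% of all were called as higher. Of those called as lower, 102 (4.94%) were called in the same direction and 14 in the other, where 1.14% of all were called as lower. None of the 4 IDs named for spring against autumn was called for winter against summer. Their differences were 0.78 ± 1.1 for EVM0021846, -1.38 ± 0.88 for EVM0033164, -1.70 ± 1.1 for EVM0026519 and -2.78 ± 1.2 for EVM0020995. That of EVM0033164 had the opposite sign to its spring against autumn difference. Of these 36 libraries, 11 correlated best with a bud or with a leaf library of another season, most of them in a month next to their own or 2 months away. The exceptions were C. japonica Feb 1 (best match a bud), C. japonica Jan 3 (Aug 2) and C. azalea Jan 1 (Apr 1). Without these 3 libraries, an alternative chosen after seeing the data, the medians were 0.59 and -0.64, against -0.02 for all. The calls rose over all IDs as well: 25.6% of the IDs called as higher were called in the same direction, against 4.89% of all, and 26.7% of those called as lower, against 5% of all. Without the 4 C. japonica winter libraries that correlated better on average with summer than with winter (Jan 2, Jan 3, Feb 1 and Dec 1), also chosen after seeing the data and a choice that widens the contrast by its construction, the medians were 0.66 and -0.84, and the shares were 27.5% against 5.18% and 33.9% against 6.7%.

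**Figure D5:**
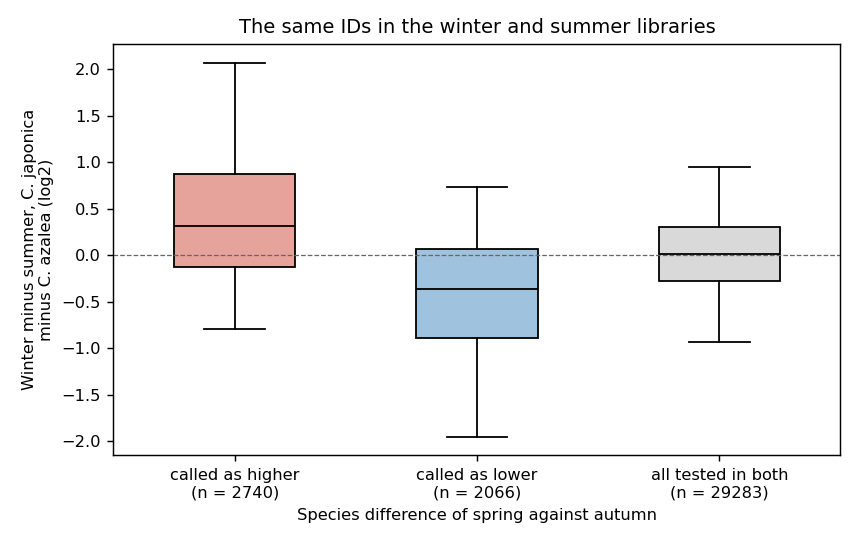
Winter minus summer species difference of log2(TPM + 1), from libraries the contrast did not use, for IDs called as higher and as lower for spring against autumn and for all IDs tested; boxes give the quartiles and whiskers the range from the 5th to the 95th percentile. The medians are 0.32, -0.36 and 0.01, and the boxes overlap.

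Flower buds of C. japonica were set beside the called IDs after their values had been seen. The choice followed 5 of the named spring-high IDs of C. azalea, which stood out in buds and in Mar 3. Other named IDs differed: EVM0016210 and EVM0002118, also spring-high in C. azalea, averaged at most 0.451 and 7.13 TPM in any bud stage. EVM0029222 and EVM0011960, called in the positive direction, averaged 927 and 216 TPM in FB-2 buds and 764 and 602 TPM in FB-3 buds. Their Mar 3 values, 97.0 and 98.0 TPM, were the lowest of that month. Over the 9 bud libraries and the 18 winter and summer leaf libraries of C. japonica, the median difference of bud minus leaf was -0.06 among IDs called as higher, 0.58 among those called as lower and 0.36 over all tested. A difference of at least 1 toward buds was found for 16.2%, 40.3% and 22.1% of these IDs. One of at least 1 toward leaves was found for 21.8%, 13.8% and 9.88%. The shares of positive differences were 46.8%, 66.9% and 67.6%, so IDs called as lower were close to all tested in sign. Without the bud-like leaf library Feb 1 and the leaf-like bud library FB-1 1 the medians were -0.14, 0.77 and 0.42.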

How the data were processed

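The authors deposited TPM, in 1 table per species, with 41982 IDs each. HISAT2 2.1.0 and StringTie 1.3.6 were used, per the submitters' processing notes. No settings, genome build or annotation source is given in the sources used here, so it is unknown which species' gene models the IDs of both tables stand for, and reads of the other species may map to them less well. The labels tie each column to a month and tissue. C. japonica libraries are numbered within a month by accession, as names only. Whether a month's libraries came from different plants is not labelled, so the p-values reflect spread between libraries that may be technical.

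From the deposited TPM, log2(TPM + 1) was fitted in R 4.3.3 with limma 3.58.1 (1 mean per species and month, mean-variance trend) on IDs that reached 1 TPM in 3 or more libraries of the fit. The joint fit had 36 libraries and 12 means, and each species fit 18 libraries and all IDs of its table. The month pairs are contrasts of the joint fit. Differences on this scale understate the change of IDs with low values, and an SE is limma's moderated one. TPM are shares of a fixed total, so a few abundant IDs lower all others.

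For each comparison the 2 called IDs with the largest difference in each direction are named, provided that the higher season or month averaged 5 TPM or more (in both species, for a species difference). The members, lists and rules were chosen with earlier results of these data known. The pathway and marker lists (photosynthesis, flower organs, cold response, clock, flowering) could not be looked up without gene names and were not tested. The fits were tested on simulated data. The alternatives were other pseudocounts, filters, scalings (median-of-ratios, quantile), array weights, sets of libraries and months, and a replicate block.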

Additional observations from a re-analysis of the deposited data

Results flagged for a closer look

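The following results were singled out because the change from spring to autumn, or between the months of a pair, differed between the species by the test of that difference itself. The species difference was called at 4829 IDs for spring against autumn, at 1876 for Mar against Sep, at 582 for Apr against Oct and at 3968 for May against Nov. The named IDs for spring against autumn were EVM0021846 at 6.52, EVM0033164 at 6.02, EVM0026519 at -6.70 and EVM0020995 at -6.37 on the log2(TPM + 1) scale. Those of Mar against Sep were EVM0029222 at 10.21, EVM0011960 at 9.06, EVM0016210 at -10.88 and EVM0002118 at -10.13. In Apr against Oct they were EVM0006410 at 9.57, EVM0007918 at 5.60, EVM0026519 at -6.92 and EVM0036026 at -6.85, and in May against Nov they were EVM0021846 at 9.33, EVM0033164 at 8.64, EVM0026519 at -8.50 and EVM0000042 at -7.33.

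A library far from the other 8 of its season was found in 8 of 72 groups of named IDs (Dixon's test on log2(TPM + 1), at a level that chance alone passes in about 1 of 20 groups). In 6 of the 8 the library was the C. japonica spring library Mar 3, at 172 TPM for EVM0026519, 49.9 TPM for EVM0020995, 19.5 TPM for EVM0034352, 20.8 TPM for EVM0027111, 36.5 TPM for EVM0036026 and 41.2 TPM for EVM0000042. These IDs were named for their values in C. azalea or for the species difference, and they share this library. The other 2 were May 3 of C. japonica, where EVM0006410 was listed at 0, and Sep 1 of C. japonica, where EVM0016210 was at 153 TPM.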

How the results depend on the processing

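The species difference of spring against autumn was called at 4829 IDs, and at 4426 to 5481 when each library was left out in turn. It fell to 2315 with a pseudocount of 5, to 2554 with month means as the unit and to 2902 without May and Nov. In that order, 47.3%, 49.8% and 54% of the calls were kept. The other 13 alternatives gave counts within 1.5 times, from 4117 at a filter of 5 TPM to 6889 without the 4 autumn libraries closer to spring. A similar count did not mean the same IDs: 70.9% of the calls were kept without Mar and Sep. The rest kept 83.4% (without Apr and Oct) to 97.7% (replicate block). Within C. japonica (2166) the count was 908 with a pseudocount of 5 and 4409 without those 4 libraries, and 1739 to 2787 with a library left out. Within C. azalea (2225) it was 3555 with a pseudocount of 0.1, 908 with one of 5, 856 with month means and 3453 without Apr and Oct, and 2119 to 2366 with a library left out.

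Month pairs moved more. Mar against Sep (1876) gave 2830 with median-of-ratios scaling, 3012 with quantile normalization, 8110 with array weights, 897 with all leaf libraries in the fit and 3120 without the 4 libraries. Leaving out 1 library gave 1167 to 3511 (1167 without C. japonica Mar 2, 1206, 3511 and 1196 without C. azalea Mar 1, Mar 2 and Sep 3). Apr against Oct (582) gave 965, 963, 4959, 196 and 2320 under the same 5 alternatives in that order, and 1502 without C. japonica Oct 1. Leaving out 1 library gave 304 to 1502, with 344, 304 and 336 without C. japonica Apr 2, Oct 2 and Oct 3 and 329, 357, 356 and 347 without C. azalea Apr 1, Apr 2, Apr 3 and Oct 3. May against Nov (3968) gave 7845 with array weights, and 2769 to 4749 with a library left out. The share of higher calls also moved by over 10 points with some months or weights: without Apr and Oct it was 68.7% for the species difference, against 57.1%, and 35.1% in C. azalea, against 51.9%. It was 68.8% with month means and 68.1% without May and Nov in C. azalea, 51.1% in C. japonica without Mar and Sep, against 65.1%, and with array weights 83.7% for Mar against Sep and 50.6% for May against Nov. Without the 4 libraries it was 45.3% for Apr against Oct. The calls in winter against summer among the called IDs numbered 343, against 1326 without the 3 libraries matching buds or a month over 2 months away and 1528 without the 4 winter libraries closer to summer, both alternatives added after seeing the data; calls over all IDs rose too. The cause of these shifts was not tested.

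No direction reversed. Of 1032 refits of the 24 named results, 1002 kept their call and 30 lost it: EVM0006410 in 27 for Apr against Oct and in 1 within C. japonica (adjusted p = 0.068 without Apr and Oct), and EVM0007918 in 2 for Apr against Oct (adjusted p of 0.0572 and 0.0583). Most refits left out 1 library and so shared nearly all data with the main fit. Some sizes moved by 1.5 times or more. With a pseudocount of 5, EVM0015251 in C. japonica was -2.74 (main fit -4.14) and EVM0020167 in C. azalea -2.60 (-4.35). For Apr against Oct it gave 3.59 for EVM0007918 (5.60) and -3.84 for EVM0036026 (-6.85). EVM0033164 in C. azalea was -2.76 without May and Nov (-4.20). EVM0006410 for Apr against Oct ranged from 5.92 to 15.06. Under the replicate block, possible for the C. azalea numbers only, 4729 IDs were called, with 97.7% of the calls kept. On average, same-numbered C. azalea libraries did not deviate together (r from -0.51 to 0.52, mean -0.02 over 45 pairs). Of 18 libraries, 6 correlated best with their own number, where every other month holds 3 numbers, 1 of them the library's own. Whether same-numbered libraries share a plant is not labelled and was not tested. Depth is unknown and limits what low IDs can show.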
